A study of Mus musculus with 9 samples.

Results

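The early growth response genes Egr1, Egr2 and Egr3 and the genes of their corepressors, Nab1 and Nab2, were followed in peptide-activated CD8 T cells of 3 clones. The 5 genes were taken by symbol from the 24060 genes of the deposited table, and 5 of 5 were among the 11330 genes whose maximum level passed the filter described with the tests. Egr proteins are zinc finger transcription factors whose genes are switched on early after T cell receptor engagement. A known route, best known for Egr1, runs through the Ras-ERK cascade and serum response factor (SRF) bound with its cofactors at promoters. Other routes to Egr2 and Egr3 were not examined. Egr1 is known for driving activation genes, while Egr2 and Egr3 are known both for supporting the early response and for restraining T cells, for example in anergy. Nab1 and Nab2 have no DNA-binding domain of their own. They bind Egr1, Egr2 and Egr3 and mostly repress the genes these occupy, and Nab2 is itself known as a gene that Egr factors induce, which closes a feedback loop.

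The cells came from transnuclear mice of the lines R7-I, R7-II and R7-III on a Rag2-proficient BALB/c background. Each line carries the T cell receptor of 1 CD8 T cell specific for the Toxoplasma peptide ROP7, so that each clone is 1 receptor and 1 mouse line, and a difference between clones cannot be told apart from another difference between lines. By the series' description the affinity for the peptide falls from R7-I over R7-III to R7-II, and self-reactivity falls from R7-III over R7-I to R7-II. In all 3 groups splenocytes were cultured overnight with IL-2 (10 ng/ml) and ROP7 peptide (10 µM), and tetramer-positive CD8 T cells were sorted for RNA sequencing, with 3 libraries per clone and 9 in all. Unstimulated cells were not analysed here, so levels after activation are compared and not induction.

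Levels are given as TPM, a share of all transcripts that is corrected for transcript length and brought to 1 common total per library. The number of reads behind a library is therefore unknown from these values, and counting error cannot be stated. The CD8 T cell markers Cd3d, Cd3e, Cd3g, Cd8a, Cd8b1, Cd2, Thy1 and Lck were present in every library, with a summed level of 2888 to 3005 TPM in R7-II, 2036 to 2114 TPM in R7-I and 2095 to 2238 TPM in R7-III. Markers of other cells moved with the R7-II clone. Summed over 8 B cell genes the level was between 33.2 and 69.9 TPM in R7-II, between 8.11 and 15.0 TPM in R7-I and between 5.06 and 7.27 TPM in R7-III. Over 5 MHC class II genes it was between 101 and 168.1 TPM in R7-II and between 19.6 and 44.1 TPM in the other clones, and over 8 myeloid genes between 24.4 and 79.9 TPM in R7-II and between 4.31 and 7.67 TPM in the others, with Cd14 at 0 in all R7-I libraries. Within R7-II, replicates 1, 2 and 3 had B cell sums of 69.89, 33.17 and 53.87 TPM, MHC class II sums of 168.09, 101.01 and 164.57 TPM and myeloid sums of 43.87, 24.4 and 79.92 TPM. The 4 CD4 T cell markers summed to 4.03 to 5.81 TPM in R7-II, 3.36 to 4.11 TPM in R7-I and 5.62 to 8.01 TPM in R7-III. The part of other cells in the results on Egr and Nab genes was not tested, and in bulk RNA fewer cells of a type and less RNA per cell cannot be told apart.

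Promoter windows from RefSeq (GRCm38.p6, 250 bases before to 50 after a transcript start) were matched for Egr2, Nab1 and Nab2 and for the related gene Egr4. The set of windows held none for Egr1 or Egr3, so their promoters were not searched. They are shown because the binding site of SRF, the CArG box, and the site of the Egr factors themselves are among the sequences through which this circuit is known to be wired. Both strands were searched. The Egr site was spelled GCGTGGGCG and lay in 0.612% of the 32851 windows, and the CArG box lay in 1.63%. Of the 5 windows of Egr2, 4 held a CArG box, at 2 different places, and the window of Nab1 held 2 Egr sites, 1 on each strand, which do not overlap. In the 30-base stretches that follow, read 5′ to 3′ on the strand of the gene, the capitals mark the CArG box (Egr2) or the Egr site (Nab1).
Egr2, chr10:67537484-67537513, plus strand: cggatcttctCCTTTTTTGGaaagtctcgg
Egr2, chr10:67537787-67537816, plus strand: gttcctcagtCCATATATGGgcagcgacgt
Nab1, chr1:52500538-52500567, minus strand: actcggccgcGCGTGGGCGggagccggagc
Nab1, chr1:52500570-52500599, minus strand: gccccgcggcCGCCCACGCcgggatctgcg

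The Nab1 stretches lie 109 and 141 bases before the transcript start, counted to the first base of the site, and the Egr2 boxes lie 72 bases before the nearest start listed. Neither element was found in the windows of Nab2 and Egr4, nor were the cAMP response element (TGACGTCA, in 1.79% of windows) and the ETS core (CCGGAAGT, in 3.89%) found in those of any of these 4 genes. That says only that these letters are not in these windows.

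Egr1 set the R7-II clone apart. It stood at 179.38, 188.88 and 164.55 TPM in R7-II replicates 1, 2 and 3, at 94.97, 97.75 and 101.13 TPM in R7-I and at 95.2, 97.53 and 103.68 TPM in R7-III. The lowest R7-II library was far above the highest of the other 6, while the libraries of R7-I and R7-III overlapped. The mean and SD over 3 libraries each were 177.6 ± 12.3 TPM in R7-II, against 97.95 ± 3.09 in R7-I and 98.8 ± 4.38 in R7-III, so that R7-II held 1.81 times the R7-I level and 1.80 times the R7-III level.

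**Figure D1:**
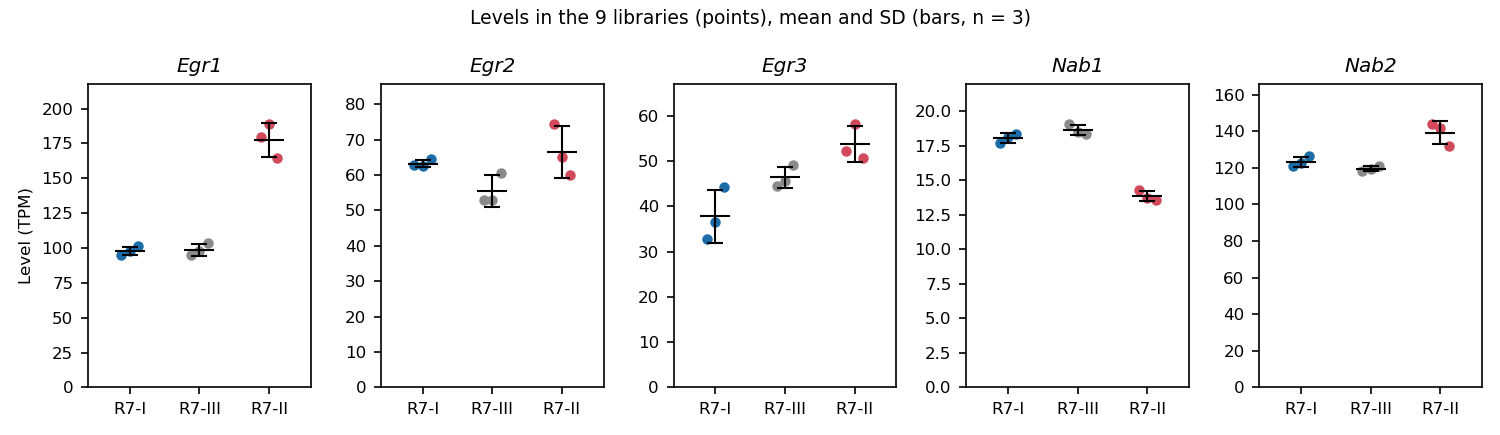
TPM (vertical axis, from 0, a scale for each gene) of Egr1, Egr2, Egr3, Nab1 and Nab2 in the 3 libraries of each clone, ordered by falling affinity. Points are libraries and bars the mean and SD: Egr1 in R7-II lies between 164.55 and 188.88 TPM and all other libraries at or below 103.68 TPM, whereas Nab1 in R7-II lies below all other libraries.

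Differences were tested with limma on log2(TPM + 1), fitting all 9 libraries together, over the 11330 genes with a maximum TPM above 1, with Benjamini-Hochberg adjustment and the study's threshold of 0.01. On this scale changes of low genes are understated. Of all genes tested, 56.1% passed between R7-II and R7-I (40.6% higher and 15.5% lower in R7-II), 53.6% between R7-II and R7-III (35.6% higher and 18% lower) and 8.41% between R7-III and R7-I (6.96% higher and 1.45% lower in R7-III). Of the 5 genes, 4 passed when R7-II was set against R7-I and 3 when it was set against R7-III. Of the same 5, 0 passed between the R7-III and R7-I clones. There 2 of the 5 had an unadjusted p under 0.05, as did at least 2142 of the 11330 genes tested. Passing was therefore common in R7-II, and the sizes below are read against the median of all genes, which was itself shifted by 0.17 against R7-I and by 0.12 against R7-III on the log2 scale. Median-of-ratios scaling, which removes this shift, lowered the log2 fold change by 0.17 and 0.12 and left 2 of the 5 genes past the threshold between R7-II and R7-I and 2 between R7-II and R7-III. Over all 11330 genes tested, 6179 and 6046 passed in these comparisons after that scaling.

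Compared with R7-I, Egr1 in R7-II had a log2 fold change of 0.85 (adjusted p = 3.25e-07), and compared with R7-III one of 0.84 (adjusted p = 3.53e-07, limma, both with a standard error of 0.0517). After median-of-ratios scaling it was 0.68 and 0.71 and still passed (adjusted p = 2.88e-06 and 2.09e-06, limma). Among all genes tested, 8.75% had a larger log2 fold change than Egr1 against R7-I and 7.28% against R7-III. R7-III and R7-I differed by 0.01 on the log2 scale, with a 95% interval from -0.10 to 0.13 (adjusted p = 0.910, limma). The exact two-sided permutation test of the 3 R7-II libraries against the other 6 gave p = 0.024, the smallest that this design allows; 59.1% of all genes tested had R7-II libraries that did not overlap the other 6, and 3 against 3 libraries cannot go below p = 0.1.

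Egr2, which lies on chromosome 10 of mm10 from 67534469 to 67542188, did not share this difference. It was at 74.41, 65.21 and 59.87 TPM in R7-II, at 62.79, 62.43 and 64.42 TPM in R7-I and at 52.86, 53.05 and 60.69 TPM in R7-III. The R7-II libraries overlapped those of both other clones, and the R7-III libraries all lay below those of R7-I. The means were 66.5 ± 7.36, 63.2 ± 1.06 and 55.5 ± 4.47 TPM in R7-II, R7-I and R7-III. The log2 difference between R7-II and R7-I was 0.07, with a 95% interval from -0.10 to 0.23 (adjusted p = 0.447, limma), whose upper bound lies below the lower bound of Egr1 (0.74), and its sign turned after median-of-ratios scaling (-0.11), after quantile normalization (-0.042) and without R7-II replicate 1 (-0.016). Against R7-III it was 0.25 (standard error 0.0750, adjusted p = 0.0121, limma), which just missed the threshold of 0.01. It passed without R7-II replicate 3 (log2 fold change 0.32, adjusted p = 0.00293) and without R7-III replicate 3 (0.32, adjusted p = 0.00501), and the limma adjusted p ranged from 0.00293 to 0.113 under the alternatives. R7-III was lower than R7-I by a log2 fold change of -0.19 that did not pass (adjusted p = 0.112, limma). With R7-II set against the other 6 libraries, the exact permutation p was 0.214.

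Egr3, on chromosome 14 from 70077317 to 70082613, was highest in R7-II and lowest in R7-I. It was at 52.22, 58.14 and 50.7 TPM in R7-II, at 44.5, 45.48 and 49.06 TPM in R7-III and at 32.67, 36.49 and 44.16 TPM in R7-I. The 3 clones did not overlap, in the order R7-I, R7-III and R7-II from low to high, but R7-I replicate 3 lay just below the lowest R7-III library, and after median-of-ratios scaling R7-III overlapped both other clones. The means were 53.7 ± 3.93, 46.3 ± 2.40 and 37.8 ± 5.85 TPM in R7-II, R7-III and R7-I, which made R7-II 1.42 times R7-I. R7-II differed from R7-I by a log2 fold change of 0.50 (standard error 0.0942, adjusted p = 7.38e-04, limma). It fell to 0.33 after median-of-ratios scaling and after quantile normalization and then missed the threshold (adjusted p = 0.0113 and 0.0157, limma).

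Neighbouring clones in the order of Egr3 did not differ past the threshold. R7-II against R7-III gave a log2 fold change of 0.21 (adjusted p = 0.0740) and R7-III against R7-I gave 0.30 (adjusted p = 0.0506, limma). The latter passed without R7-I replicate 3 (log2 fold change 0.41, adjusted p = 0.00713), and the limma adjusted p ranged from 0.00713 to 0.182 under the alternatives. Non-overlapping libraries are common in these data: they were found for 71.2% of all genes when R7-II was set against R7-I, for 70.6% against R7-III, and for 41.9% when R7-III was set against R7-I.

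The related gene Egr4, on chromosome 6 from 85511121 to 85513589, was close to the filter used here, a maximum TPM above 1. Its means were 1.31 ± 0.155 TPM for R7-II, 1.02 ± 0.231 for R7-I and 1.60 ± 0.648 for R7-III, and the libraries of all clones overlapped. Its smallest adjusted p was 0.220, between R7-III and R7-I (limma).

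Nab1, on chromosome 1 from 52455849 to 52500712, went the opposite way to Egr1. It was at 14.28, 13.71 and 13.58 TPM in R7-II, at 17.66, 18.14 and 18.33 TPM in R7-I and at 19.07, 18.51 and 18.32 TPM in R7-III. Every R7-II library lay below the other 6, and R7-I and R7-III overlapped. R7-II libraries did not overlap the other 6 for 59.1% of all genes tested. The means were 13.9 ± 0.372, 18.04 ± 0.345 and 18.6 ± 0.390 TPM, so that R7-I held 1.30 times the R7-II level. Nab1 had a log2 fold change of -0.36 compared with R7-I (adjusted p = 7.50e-05), and of -0.40 compared with R7-III (adjusted p = 3.48e-05, limma, standard error 0.0481 in both), and with median-of-ratios scaling it was -0.52 in both (adjusted p = 3.64e-06 and 3.91e-06, limma). Among all genes tested, 8.53% had a lower log2 fold change than Nab1 against R7-I and 9.92% against R7-III. Between R7-III and R7-I it was 0.04, with a 95% interval from -0.06 to 0.15 (adjusted p = 0.579, limma).

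Nab2 was the most abundant corepressor and changed little. It lies on chromosome 10 from 127660918 to 127666703 and was at 143.95, 141.8 and 132.01 TPM in R7-II, at 120.74, 122.54 and 126.2 TPM in R7-I and at 118.31, 119.24 and 121.12 TPM in R7-III. The R7-II libraries lay above the other 6, with means of 139.3 ± 6.36, 123.2 ± 2.78 and 119.6 ± 1.43 TPM. After median-of-ratios scaling the R7-II libraries overlapped those of R7-I. Without scaling, 59.1% of all genes tested had R7-II libraries that did not overlap the other 6. On the log2 scale R7-II exceeded R7-I by 0.18 (adjusted p = 0.00158) and R7-III by 0.22 (adjusted p = 3.98e-04, limma, standard error 0.0367 in both). These sizes are close to the median shifts of all genes, and after median-of-ratios scaling they were 2.07e-04 and 0.09 and no longer passed (adjusted p = 0.997 and 0.0389, limma). R7-III and R7-I differed by -0.04 (adjusted p = 0.471, limma).

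The reads were not strand-specific, and of the 2941 exon bases of Nab2 in the GENCODE annotation of the same build, 40 are shared with Stat6, 151 with Nemp1 (listed as Tmem194) and 1050 with the antisense RNA Gm16229, all on the opposite strand. Reads of these genes cannot be told apart there. Stat6 averaged 226.4 ± 11.01 TPM for R7-II and 195.6 ± 0.658 for R7-I, a log2 fold change of 0.21 (adjusted p = 2.91e-04, limma) that did not pass after median-of-ratios scaling (0.03, adjusted p = 0.367, limma), and Tmem194 was at 15.0 ± 1.31 and 24.5 ± 0.502 TPM, a log2 fold change of -0.68 (adjusted p = 6.97e-06, limma). Their part in the Nab2 value was not tested.

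**Figure D2:**
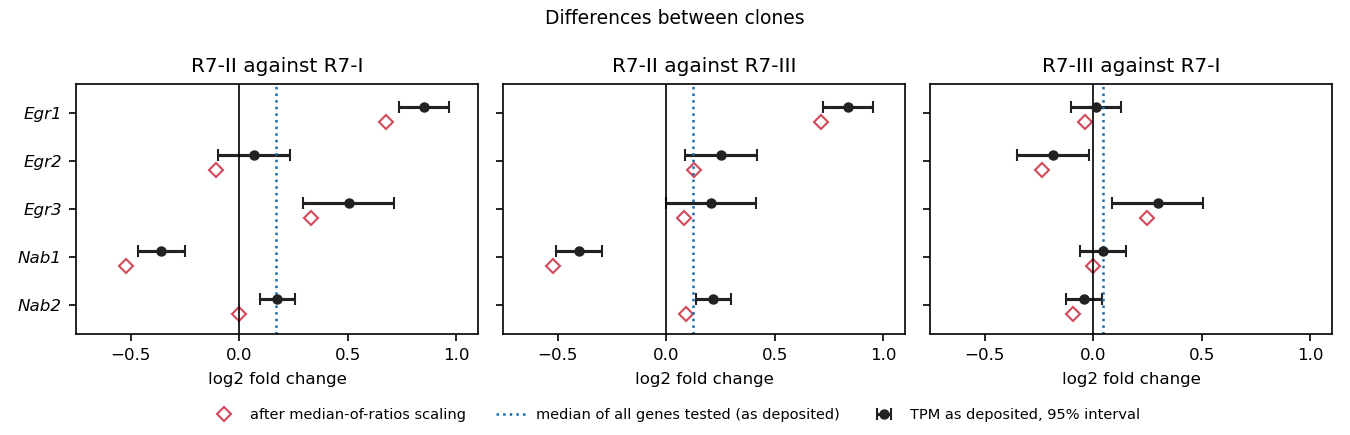
Log2 fold change of log2(TPM + 1) for each gene in the 3 comparisons of clones, with 95% intervals from limma (black), the value after median-of-ratios scaling (open diamonds, no interval drawn) and the median of all genes tested (dotted line). For R7-II against R7-I, Egr1 near 0.85 and Nab1 near -0.36 stay clear of 0 and of the dotted line. In that comparison Nab2 falls onto 0 after scaling, while against R7-III it stays at 0.09.

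The make-up of the family differed as well. Ratios within a library do not depend on how libraries are scaled, and they are given as descriptions. Egr1 made up 58.6% to 60.5% of the summed TPM of Egr1, Egr2 and Egr3 in R7-II, 48.2% to 49.9% in R7-I and 48.6% to 49.7% in R7-III. Egr2 made up 20.9% to 24.3% in R7-II, 30.7% to 33.0% in R7-I and 27.1% to 28.4% in R7-III, so that each clone had its own range. The ratio of Egr1 to Egr2 was between 2.41 and 2.896 in R7-II, between 1.51 and 1.57 in R7-I and between 1.71 and 1.84 in R7-III.

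Egr3 relative to Egr2 split the clones in another way. The ratio was between 0.808 and 0.857 in R7-III and between 0.520 and 0.686 in R7-I, and the R7-II libraries, between 0.702 and 0.892, overlapped those of R7-III. Between the corepressors, Nab2 was at 9.72 to 10.3 times Nab1 in R7-II, 6.76 to 6.89 times in R7-I and 6.20 to 6.61 times in R7-III. The summed Nab1 and Nab2 level relative to the summed Egr level was 0.515 ± 0.0157 in R7-II, 0.710 ± 0.0193 in R7-I and 0.690 ± 0.0320 in R7-III. The summed Egr level was 297.8 ± 19.9 TPM for R7-II, 198.9 ± 9.84 for R7-I and 200.7 ± 11.2 for R7-III, whereas the summed Nab level was 153.1 ± 6.65, 141.2 ± 3.10 and 138.2 ± 1.1 TPM.

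**Figure D3:**
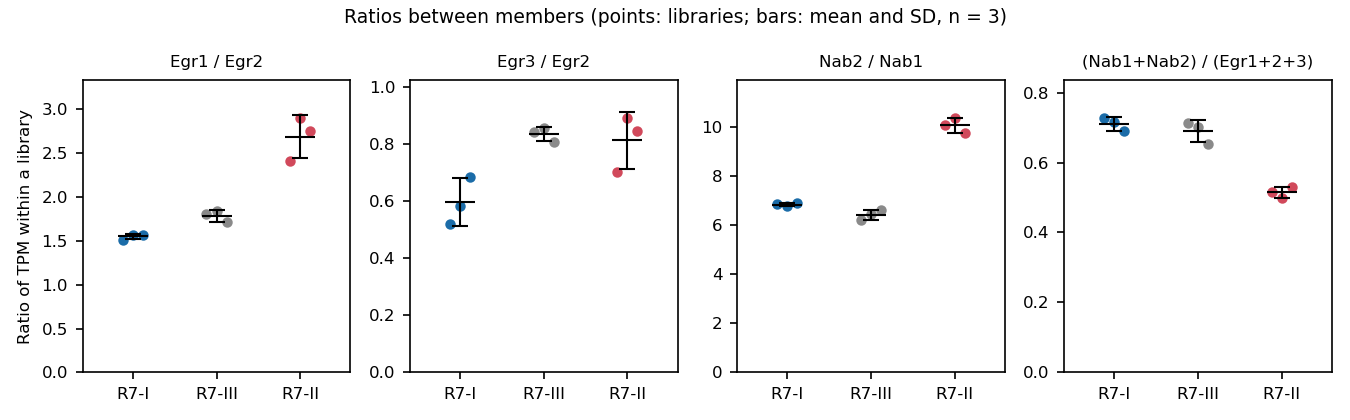
Ratios of TPM within each library (vertical axes from 0, no unit) for Egr1 to Egr2, Egr3 to Egr2, Nab2 to Nab1 and the Nab sum to the Egr sum. Points are libraries, bars the mean and SD of 3; the Nab sum to the Egr sum is 0.498 to 0.529 in R7-II and 0.653 or more in every other library.

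Some genes followed the members closely over the 9 libraries. By Pearson correlation of log2(TPM + 1), the genes most like Egr1 were C920006O11Rik (r = 0.998), Trim46 (r = 0.995) and Atp6v0e2 (r = 0.994), whose mean TPM was 2.67, 1.98 and 4.50 in R7-II, 0.207, 0.647 and 0.0533 in R7-I and 0.263, 0.703 and 0.0667 in R7-III, and which so passed the filter on low values only through R7-II. Those most like Egr3 were Tnfrsf10b, a death receptor gene (r = 0.968), Sdccag8 (r = 0.966) and Ahi1 (r = 0.960). Tnfrsf10b averaged 26.8 ± 1.19 TPM for R7-II, 22.1 ± 0.852 for R7-III and 18.7 ± 2.59 for R7-I. Those most like Nab1 were Idi2 (r = 0.995), Pcbp1, which encodes an RNA-binding protein (r = 0.993), and Eif4h, a translation initiation factor gene (r = 0.993). Those most like Nab2 were Dync1i2, Ints6 and Selk (r = 0.989, 0.985 and 0.981).

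Egr2 had no neighbour as close, the highest being Nkrf, Rad17 and Pip5k1a (r = 0.952, 0.952 and 0.949). Among the members, r was 0.952 between Egr1 and Nab2, -0.971 between Egr1 and Nab1, 0.757 between Egr1 and Egr3, 0.585 between Egr1 and Egr2 and 0.191 between Egr2 and Egr3. These correlations rest on 9 libraries of 3 clones, so that a gene that only parts R7-II from the rest scores high, and they are descriptions.

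Upstream of the Egr genes, several SRF partners were higher in R7-II, and SRF itself did not pass. Of 6 genes, 5 passed as higher in R7-II when set against R7-I and 4 when set against R7-III, and 0 passed as lower. Their median log2 fold change was 0.48 and 0.37, against 0.17 and 0.12 over all genes. The share of all genes that passed as higher was 40.6% and 35.6%. Mkl1, which encodes the actin-regulated SRF coactivator MRTF-A, averaged 40.8 ± 4.81 TPM in the R7-II libraries, against 18.8 ± 1.14 in R7-I and 20.3 ± 1.06 in R7-III (log2 fold change 1.07 and 0.97, adjusted p = 1.49e-06 and 3.05e-06, limma). Elk4, a ternary complex factor that ERK activates, was at 50.8 ± 4.41, 35.0 ± 1.34 and 32.9 ± 1.11 TPM (log2 fold change 0.52 and 0.61). Elk3 was higher than in R7-I (0.62) but not past the threshold against R7-III (0.24, adjusted p = 0.0243, limma). Srf was at 58.1 ± 1.41, 58.9 ± 1.07 and 57.1 ± 2.71 TPM, with log2 fold changes of -0.02 and 0.03 that did not pass; after median-of-ratios scaling it was lower in R7-II than in R7-I (-0.19, adjusted p = 0.00144, limma), and 4 of the 6 genes were higher than in R7-I and 3 of the 6 higher than in R7-III. With that scaling 6179 and 6046 of all 11330 genes tested passed, and these were not counted by direction. Between R7-III and R7-I 0 of 6 passed in limma, and 1 had an unadjusted p under 0.05, as did at least 2142 of the 11330 genes tested.

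In the Ras-ERK cascade, R7-II had 8 of 17 genes higher and 2 lower when set against R7-I, and 8 and 3 against R7-III. After median-of-ratios scaling the counts were 6 and 6, and 5 and 4, so the balance of directions depends on the scaling. With that scaling 6179 and 6046 of all 11330 genes tested passed, and these were not counted by direction. Before scaling, 40.6% of all genes tested passed as higher and 15.5% as lower against R7-I, and 35.6% and 18% against R7-III. Rasgrp1, the exchange factor that couples diacylglycerol to Ras in T cells, averaged 74.9 ± 9.92 TPM in the R7-II libraries, against 35.4 ± 2.21 in R7-I and 32.6 ± 0.536 in R7-III (log2 fold change 1.05 and 1.17, adjusted p = 1.90e-06 and 8.97e-07, limma). Mapk3, which encodes ERK1, rose by 0.77 and 0.42 and Ksr1, a scaffold of the cascade, fell by 0.56 and 0.55 on the log2 scale. Rps6ka1 was past the threshold against R7-III only (0.21, adjusted p = 0.00881, limma), and not after median-of-ratios scaling (0.08, adjusted p = 0.314, limma). Between R7-III and R7-I 0 of 17 genes passed in limma. An unadjusted p under 0.05 was seen for 6 of the 17 and for at least 2142 of the 11330 genes tested.

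The early response genes, a list of genes known like Egr1 to be switched on early after activation, went both ways. Of 27 such genes, R7-II had 8 higher and 9 lower when set against R7-I, and 7 and 8 against R7-III. Their median log2 fold changes were 5.64e-04 and -0.0033. After median-of-ratios scaling the counts were 5 and 13, and 7 and 9. Without scaling, 40.6% of all genes tested passed as higher and 15.5% as lower against R7-I, and 35.6% and 18% against R7-III. Fosb, an AP-1 subunit gene, averaged 6.48 ± 0.251 TPM in the R7-II libraries, against 1.40 ± 0.164 in R7-I and 1.26 ± 0.0611 in R7-III (log2 fold change 1.64 and 1.73, adjusted p = 1.89e-07 and 1.60e-07, limma). Dusp1, a phosphatase gene that restrains MAP kinases, rose by 1.31 and 0.99 on the log2 scale. Ier3 fell by 1.18 and 1.22. Myc and Irf4, the most abundant of the list, fell by 0.25 and 0.31 against R7-I and by 0.13 and 0.21 against R7-III, and with median-of-ratios scaling by 0.43 and 0.48 and by 0.26 and 0.33.

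Other members of this list are named after their values were seen. Fos, Zfp36 and Btg2 were higher in R7-II with Egr1, by 0.87, 0.61 and 1.12 on the log2 scale against R7-I, and Junb, Atf3, Bhlhe40 and Nr4a3 were lower, by -0.50, -1.15, -0.84 and -0.49. Nr4a1, which encodes the signal-strength reporter Nur77, averaged 314.9 ± 31.2 TPM in the R7-II libraries, against 245.4 ± 22.8 in R7-I and 225.3 ± 4.99 in R7-III (log2 fold change 0.36 and 0.48, adjusted p = 0.00154 and 2.38e-04, limma), and against R7-I it was 0.18 after median-of-ratios scaling and did not pass (adjusted p = 0.0334, limma). Dusp5 was the only 1 of the 27 genes to pass between the R7-III and R7-I clones and was lower in R7-III (-0.33, adjusted p = 0.00875, limma). Over all genes tested, 8.41% passed between these clones.

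**Figure D4:**
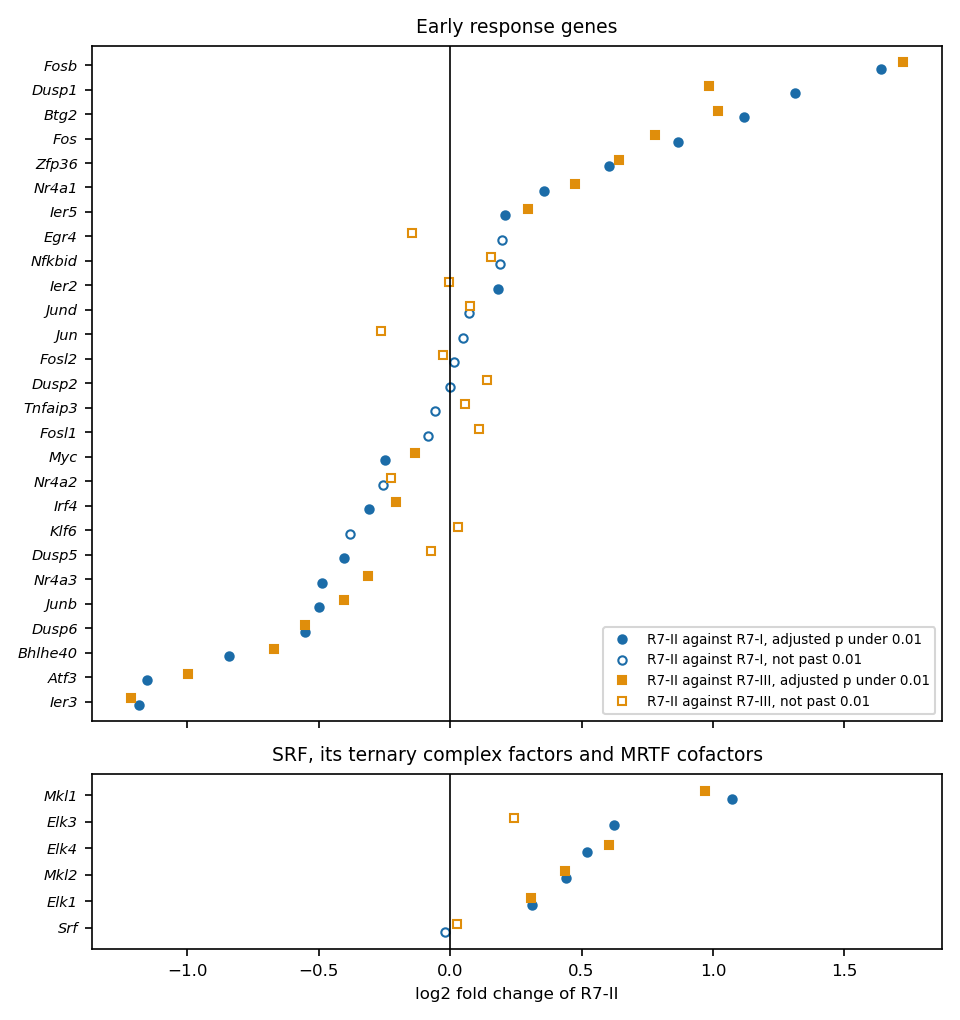
Log2 fold changes for R7-II, against R7-I as circles and against R7-III as squares, of 27 early response genes (top) and of SRF and 5 of its partners (bottom). Both comparisons share the R7-II libraries; filled symbols passed an adjusted p of 0.01 in limma. The early response genes run from Ier3 near -1.2 to Fosb above 1.6, with 8 higher and 9 lower against R7-I. Of all genes tested, 40.6% passed as higher and 15.5% as lower there.

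Of 18 genes linked to Egr factors in T cells, R7-II had 6 higher and 7 lower when set against R7-I, and again 6 and 7 against R7-III. After median-of-ratios scaling the counts were 6 and 9 in both. Without scaling, 40.6% of all genes tested passed as higher and 15.5% as lower against R7-I, and 35.6% and 18% against R7-III. Socs3, a cytokine signalling inhibitor gene, averaged 24.7 ± 4.98 TPM in the R7-II libraries, against 3.97 ± 0.482 in R7-I and 3.22 ± 0.896 in R7-III (log2 fold change 2.35 and 2.61). Ndrg1, linked to T cell anergy, was at 41.1 ± 8.75, 9.80 ± 1.36 and 11.03 ± 0.191 TPM (1.95 and 1.79). Il2, the gene of the T cell growth factor, was at 48.8 ± 11.6, 153.0 ± 11.96 and 196.1 ± 26.7 TPM and fell by 1.66 and 2.01 on the log2 scale. The adjusted p of these 3 genes was at most 5.19e-06 against either clone (limma).

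Tnfrsf9, the gene of the costimulatory receptor 4-1BB, averaged 344.7 ± 46.9 TPM in the R7-II libraries, against 506.9 ± 10.7 in R7-I and 377.7 ± 49.1 in R7-III, and it passed against R7-I (-0.56, adjusted p = 4.19e-04) and not against R7-III (-0.13, adjusted p = 0.246, limma). Lag3, an inhibitory receptor gene, was lower than in R7-III (-0.49, adjusted p = 3.91e-04) but missed the threshold against R7-I (-0.15, adjusted p = 0.123, limma), which it passed after median-of-ratios scaling (-0.33, adjusted p = 0.00873, limma). Named after their values were seen, Fasl, the death ligand gene that Egr2 and Egr3 are known to induce, fell by 1.44 and 1.16 on the log2 scale, and the cell cycle inhibitor gene Cdkn1a rose by 1.03 and 0.98, with Id3 at 1.06 and 0.67. Between R7-III and R7-I, 2 genes were higher and 2 lower in R7-III. There 6.96% of all genes tested passed as higher and 1.45% as lower. Nrgn, linked to Egr2 in anergic T cells, was higher in R7-III (1.13). Its level was close to the filter, at 2.87 ± 0.418 TPM in R7-III and 0.767 ± 0.167 TPM in R7-I. Dgkz, which encodes a diacylglycerol kinase, was higher in R7-III as well (0.23), though it missed the threshold after median-of-ratios scaling (0.18, adjusted p = 0.0114, limma). Sema7a (-0.49) and Tnf (-0.35) were lower.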

How the data were processed

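RNA of sorted, ROP7 peptide-activated CD8 T cells was sequenced by the authors as 100-base single-end reads without strand information. Alignment and gene-level estimates were made by the authors with RSEM 1.2.11 on mm10 RefSeq genes, and the deposited values are TPM per gene symbol, with no depth; the aligner, and which of several cell sorters made which library, are not given in the sources used here. A count test such as theirs (DESeq2 1.8.1) was not run, since TPM are not counts.

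From the TPM values, log2(TPM + 1) of the 11330 genes with a maximum TPM above 1 was fitted with limma 3.58.1 in R 4.3.3 (lmFit, eBayes with trend), with all 9 libraries, Benjamini-Hochberg adjustment over all genes and a threshold of 0.01; the fit was tested on simulated data. Permutation tests were two-sided and exact (scipy 1.17.1, Python 3.11.15). The labels call the libraries biological replicates but do not say whether they came from separate mice. The p-values therefore rest on the spread between these libraries, and whether that holds differences between mice is unknown. Correlations across genes between libraries of a clone were 0.992 to 0.997, and 0 pairs of libraries held identical values.

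The members and gene lists were chosen with earlier results of these data known. Named were the 5 members and Egr4, the 3 genes most correlated with each member, and in each list the 2 most abundant genes and the 3 with the largest change between R7-II and R7-I among those past the threshold; lists of 8 genes or fewer could be named in full. A gene that this rule names is not reported here. The alternatives were other pseudocounts, filters, scalings, moderation and threshold, fits of the compared clones only, the replicate number as a block, and 1 library dropped at a time.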

Additional observations from a re-analysis of the deposited data

How the results depend on the processing

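Over 414 combinations of a result and an alternative, 386 kept their direction and side of the threshold (counts: stayed within 1.5 times). The higher Egr1 and lower Nab1 in R7-II against both clones did so under every alternative run, with log2 fold changes of 0.68 to 0.90 and 0.71 to 0.89 for Egr1 and -0.63 to -0.29 and -0.59 to -0.33 for Nab1. Some alternatives could not move a log2 fold change and tried only the adjusted p or the threshold. Among them were the replicate block, the fit without trend, the threshold of 0.05 and a dropped library of the clone not compared. The 414 are therefore not separate checks of direction. Median-of-ratios scaling changed most calls. It turned the sign of Egr2 in R7-II against R7-I (-0.11) and, for R7-III against R7-I, of Egr1 (-0.037) and Nab1 (-0.0029), none of which passed before or after; quantile normalization turned the same 3 to -0.042, -0.015 and -0.040. Egr3 between R7-II and R7-I no longer passed under either (0.33 and 0.33), nor did Nab2 under median-of-ratios scaling (2.07e-04 against R7-I and 0.092 against R7-III), which left 2 members past the threshold against R7-I. Over all 11330 genes tested, 6179 passed against R7-I with that scaling. In the permutation test against the other 6 libraries, Egr3 (0.21, p = 0.143) and Nab2 (0.046, p = 0.238) missed 0.05 after that scaling. Egr2 between R7-II and R7-III (0.25) passed at a threshold of 0.05.

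When single libraries were left out, the log2 fold change of Egr2 lay between -0.016 and 0.14 (R7-II against R7-I) and between 0.17 and 0.32 (R7-II against R7-III), that of Egr1 (R7-III against R7-I) between -0.023 and 0.038 and that of Egr3 (R7-III against R7-I) between 0.20 and 0.41, where 0 to 1 members passed (Egr3, without R7-I replicate 3). Over all genes the count between R7-III and R7-I was 953, 2142 at a threshold of 0.05 and 422 to 1076 with a library left out (422, 574 and 619 for R7-I replicates 1, 2 and 3 and 487, 462 and 523 for R7-III replicates 1, 2 and 3). Without R7-II replicates 1, 2 and 3 the count was 1063, 1076 and 911. The cause of the lower counts was not tested. The replicate numbers did not pair the libraries (correlation of deviations from the clone means of -0.0449 to 0.0888 for same-numbered libraries, 3 of 9 libraries most correlated with their own number); with the number as a replicate block, no call on the 5 members changed, Egr1 being at 0.85 against R7-I. With TPM, how far depth limits these values is unknown.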

Other observations

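The NuRD chromatin remodelling complex, which Nab proteins are known to recruit through its Chd4 subunit, was listed beside the 5 genes. Of its 13 genes, R7-II had 5 higher and 1 lower when set against R7-I, and 5 and 2 against R7-III. Their median log2 fold changes were 0.09 and 0.01. After median-of-ratios scaling the counts were 5 and 5, and 4 and 7, so the directions depend on the scaling. Before scaling, 40.6% of all genes tested passed as higher and 15.5% as lower against R7-I, and 35.6% and 18% against R7-III. Chd4 averaged 357.2 ± 12.1 TPM in the R7-II libraries, against 333.1 ± 2.64 in R7-I and 317.7 ± 5.56 in R7-III, and passed against R7-III (log2 fold change 0.17, adjusted p = 4.60e-04) and not against R7-I (0.10, adjusted p = 0.0105, limma); after median-of-ratios scaling it passed against neither, at 0.04 against R7-III and -0.08 against R7-I (adjusted p = 0.124 and 0.0126, limma). Its relative Chd3 was at 52.2 ± 4.27, 26.8 ± 3.28 and 35.1 ± 1.01 TPM (0.94 and 0.56, adjusted p = 3.31e-06 and 1.39e-04, limma), and was also higher in R7-III than in R7-I (0.38, adjusted p = 0.00888, limma), which missed the threshold after that scaling (0.33, adjusted p = 0.0155, limma). Mta3 rose by 0.67 and 0.67 and Mbd2 by 0.42 and 0.43 on the log2 scale, and Mbd2 by 0.25 and 0.30 after that scaling. Rbbp7, a histone-binding subunit, did not pass against R7-I (-0.0033), was lower there after that scaling (-0.18, adjusted p = 1.68e-04, limma), and was lower than in R7-III (-0.13, adjusted p = 3.99e-04, limma).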
